A study of Mus musculus with 12 samples.

Results

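The genes described here are Mgp and 6 other regulators of mineralization, Spp1, Bglap, Enpp1, Ggcx, Vkorc1 and Alpl, in mouse colonic organoids given calcitriol. Mgp was chosen for its large rise with calcitriol in these same arrays, and the other 6 genes for their function. All probes whose transcript accession belongs to one of the 7 genes were taken: 8 of the 55681 probes on the array, 2 for Vkorc1 and 1 for each other gene. All 7 genes were among the 24242 that passed the filter on dim probes, which asked for a clear signal on each array of 1 group or more.

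The study asked how calcitriol, 1,25(OH)2D3, the hormone that binds the vitamin D receptor, changes RNA levels in colon epithelium with and without that receptor. The 4 groups, with 3 arrays each, were VDR KO organoids given calcitriol, VDR KO organoids given vehicle, wild-type organoids given calcitriol and wild-type organoids given vehicle. Colon crypts from 3 VDR KO and 3 wild-type C57BL/6 mice, aged 2 months (numbers 1 and 3 of each genotype) or 3 months (number 2), were grown in Matrigel as cultures enriched in stem cells. The culture of each mouse received 100 nM calcitriol, renewed every 48 h, or its ethanol vehicle, for 72 h in the series' design text and 62 h in the sample descriptions. The knockout allele is not given in the sources used here, and both genotypes carry the same strain label.

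MGP, the matrix Gla protein, is a small secreted protein that binds calcium and keeps soft tissue, above all arteries and cartilage, from mineralizing. It works only after GGCX, the gamma-glutamyl carboxylase, has modified its glutamate residues, a step that uses up reduced vitamin K, which VKORC1, the epoxide reductase blocked by warfarin, regenerates. Osteocalcin (Bglap) is a Gla protein of bone and osteopontin (Spp1) an acidic secreted phosphoprotein of bone, gut and inflamed tissue. ENPP1 makes pyrophosphate, which blocks mineral growth, and ALPL, the tissue-nonspecific alkaline phosphatase, breaks it down.

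On 11 of the 12 arrays 55.0% to 66.4% of spots lay well above background, and on the vehicle array of wild-type mouse 2 72.8% did. Levels are log2 of the processed spot signal minus the array's 75th percentile, and no level of 1 probe is set against that of another. Vdr averaged -0.09 ± 0.41 in knockout calcitriol and -0.01 ± 0.31 in knockout vehicle, against 1.02 ± 0.19 in wild-type calcitriol and 1.60 ± 0.44 in wild-type vehicle (SD, n = 3 each). Its probe was thus lower in the knockouts in both treatments with no overlap, by 1.11 and 1.61 on the log2 scale, and adjusted p was 0.259 and 0.324 in limma without a block and 0.0082 and 0.0145 with the replicate number as a block. Cyp24a1, the calcitriol-degrading enzyme and a standard target of the receptor, was above background on 0 of 6 knockout arrays, on 3 of 3 wild-type calcitriol arrays and on 1 of 3 wild-type vehicle arrays. The Y-linked gene Ddx3y was clearly expressed (0.56 to 0.75) on the 4 arrays of mice numbered 2, which carry the label female, but not (-8.18 to -6.83) on the 4 labelled male or on the 4 of mice numbered 3, so the sex labels of numbers 1 and 2 are contradicted and sex is used in no comparison.

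The vitamin D receptor binds DNA with the retinoid X receptor at pairs of 6-base sequences in direct repeat, spaced by 3 bases. The promoter windows of the members were searched for this element. The table of promoters used, from RefSeq on GRCm38.p6, holds windows from 250 bases before to 50 bases after a transcript start, 8 of them for the 6 genes other than Mgp. It holds none for Mgp, whose promoter was not searched. The search took AGGTCA and, with G in first place, GGGTCA, and the forms with T as the third base, which are AGTTCA with A first and GGTTCA with G first. Both strands were read, and any of the 4 could follow any of the 4 at a spacing of 3. None of the 8 windows held such a repeat, and 13 of the 32851 windows in the table did (0.0396%). At least 1 of the 6-base sequences stood alone in 3 of the 8 windows, against 43.7% of all windows. Printed here are the Bglap window, since the osteocalcin promoters of human and rat carry a well-known response element, and the Alpl window with the most closely spaced matches. Both lie on the minus strand and read 5′ to 3′, and capitals mark the matches.
Bglap, chr3:88384417-88384716: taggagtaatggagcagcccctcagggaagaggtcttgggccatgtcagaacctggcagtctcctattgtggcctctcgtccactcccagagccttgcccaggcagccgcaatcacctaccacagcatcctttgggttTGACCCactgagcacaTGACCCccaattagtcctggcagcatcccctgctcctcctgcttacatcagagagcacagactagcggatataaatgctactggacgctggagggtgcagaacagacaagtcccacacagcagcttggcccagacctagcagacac
Alpl, chr4:137766426-137766725: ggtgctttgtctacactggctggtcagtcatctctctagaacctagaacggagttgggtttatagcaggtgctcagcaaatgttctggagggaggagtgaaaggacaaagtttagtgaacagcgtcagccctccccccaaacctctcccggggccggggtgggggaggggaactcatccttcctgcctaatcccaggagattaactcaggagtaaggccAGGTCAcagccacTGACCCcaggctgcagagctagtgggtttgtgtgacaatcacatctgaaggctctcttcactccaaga
In Bglap, GGGTCA occurred 112 and 96 bases before the start on the opposite strand, where it reads TGACCC in the printed strand. In Alpl, AGGTCA lay 31 bases before the start, and GGGTCA lay 18 bases before it on the opposite strand. A match is only a run of letters, and the search says nothing of sequence outside the windows, where the known response element of mouse Spp1 lies.

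Mgp was high on the 3 arrays of wild-type organoids given calcitriol and low on the other 9. In VDR KO organoids its levels were -3.45, -6.24 and -5.08 with calcitriol and -3.45, -5.79 and -5.92 with vehicle in mice 1, 2 and 3. These groups overlapped, and the 2 arrays of mouse 1 were the highest in each. In wild-type organoids the levels were 3.90, 1.88 and 0.55 with calcitriol and -2.01, -2.70 and -4.82 with vehicle. Every wild-type calcitriol array lay above every wild-type vehicle array, as for 4.67% of all genes, and the mice kept the same order in both treatments.

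**Figure D1:**
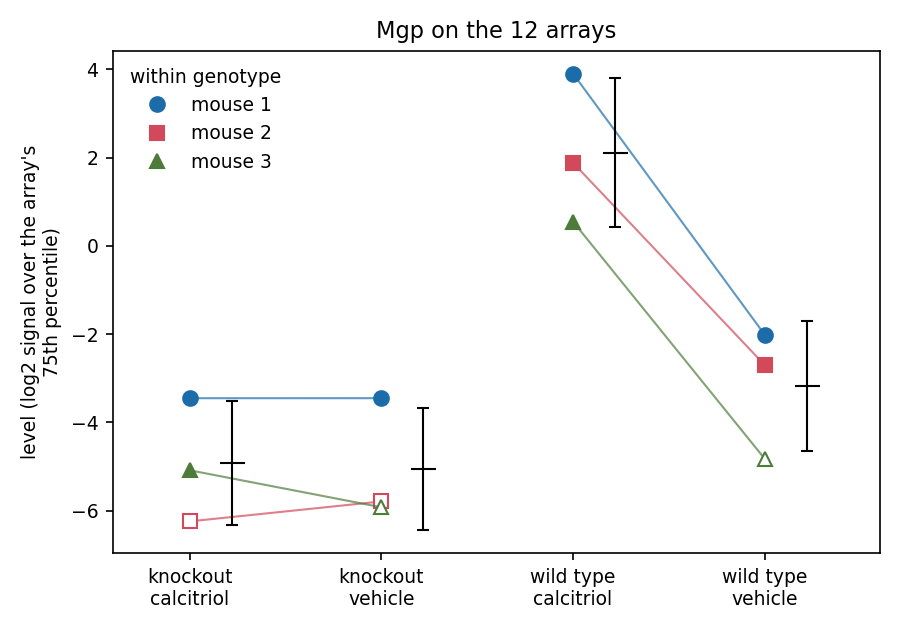
Level of Mgp (log2 of signal over the array's 75th percentile) on each of the 12 arrays, with lines joining the calcitriol and vehicle arrays of 1 mouse; open symbols are arrays where the probe was not well above background, and the bars to the right of each group are mean ± SD (n = 3). The 3 wild-type calcitriol arrays lie at 0.55 to 3.90 and the other 9 between -6.24 and -2.01.

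The processed signal behind these levels was 53.9, 10.05 and 18.5 in knockout calcitriol and 56.0, 10.6 and 12.1 in knockout vehicle. In wild type it was 11813.5, 2602.1 and 1138.3 with calcitriol and 143.8, 101.6 and 27.2 with vehicle. The probe was well above background on 2 of 3 knockout calcitriol arrays, 1 of 3 knockout vehicle arrays, 3 of 3 wild-type calcitriol arrays and 2 of 3 wild-type vehicle arrays.

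Within a mouse, calcitriol minus vehicle was -0.00, -0.45 and 0.84 on the log2 scale in the knockouts. The mean was 0.13 (SE 1.02, 95% interval -2.10 to 2.36, limma adjusted p = 1.0), and with the mouse as a block the interval narrowed to -0.62 to 0.88 (adjusted p = 0.901). On 3 of the 6 knockout arrays the probe was not well above background, and the gene passed the filter through the wild-type calcitriol group, so the test rests in part on signals near background. With the dim arrays raised to the lowest level above background the knockout mean was 0.05. Of all 24242 genes tested in the knockouts, 0 were called (0%) at an adjusted p under 0.05, while 1395 had an unadjusted p under that value. In wild type the within-mouse differences were 5.92, 4.58 and 5.37, which is 60.3-, 24.0- and 41.4-fold. They averaged 5.29 ± 0.67 (SD, n = 3 mice), or 39.1-fold, the fifth largest rise among the 24242 genes and the fourth among the 14905 with a symbol. The vehicle array of mouse 3 was not well above background, and with such dim arrays raised to the lowest level above background the wild-type mean was 5.25. Since Mgp was picked for this rise, these wild-type values describe it and carry no test.

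The difference between the effects, wild type minus knockout, was 5.16 on the log2 scale. Knockout minus wild type was -7.04 with calcitriol, with no overlap between the groups (as for 3.73% of all genes in that direction), and -1.88 with vehicle, where knockout levels of -5.92 to -3.45 overlapped wild-type levels of -4.82 to -2.01. Between mice of the same number the vehicle difference was -1.44, -3.09 and -1.10, below 0 in all 3 pairs. The share of all genes with that pattern was not computed. The probe was not well above background on the vehicle arrays of knockout mice 2 and 3 and wild-type mouse 3. With dim arrays raised to the lowest level above background the mean vehicle difference was -1.75. All these differences also share arrays with the choice of Mgp and are given without a test. In order of mean level the groups ran from wild-type calcitriol at 2.11 ± 1.69, through wild-type vehicle at -3.18 ± 1.47 and knockout calcitriol at -4.93 ± 1.40, to knockout vehicle at -5.06 ± 1.39 (SD, n = 3 each). The levels of the last 3 groups overlapped, and those of the first overlapped none of them.

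Mgp varied strongly between mice of 1 group. Its pooled SD within groups was 1.49, larger than that of 99.4% of genes, against a median of 0.32 over all genes. Mouse 1 had the highest Mgp level of its group in all 4 groups, a pattern shown by number 1 in 10.4% of all genes, by number 2 in 5.40% and by number 3 in 4.49%. The within-mouse differences of the wild types spread less than the levels, with an SD of 0.67 against 1.69 and 1.47.

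Slide and group overlapped in this series. All 3 wild-type calcitriol arrays lay on the largest slide, of 7 arrays, and of the wild-type vehicle arrays only that of mouse 3, so 5.37 is the single wild-type difference within 1 slide. The vehicle arrays of knockout mice 1 and 2 filled a slide of 2 arrays, and no knockout mouse had both its arrays on 1 slide. Between genotypes in vehicle, only the mice numbered 3 shared a slide, so genotype and slide cannot be told apart for numbers 1 and 2. With slide as a block the wild-type difference of Mgp was 6.03, and with only the largest slide's arrays it was 6.94. The latter sets the 3 calcitriol arrays against the vehicle array of mouse 3 alone. That array was the lowest of the wild type and not well above background. In bulk RNA a change in the number of cells that express a gene and a change in RNA per cell cannot be told apart.

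Cell type markers were summed per array as log2 of their total signal over the array's 75th percentile. All 8 epithelial markers and all 7 goblet cell markers were above background on all 12 arrays. The goblet sum was 7.58, 7.37 and 6.91 in knockout calcitriol and 7.60, 7.21 and 6.74 in knockout vehicle. In wild type it was 8.01, 7.80 and 7.04 with calcitriol and 7.65, 7.20 and 6.53 with vehicle. The goblet sum was thus higher with calcitriol in each wild-type mouse, by 0.35, 0.61 and 0.52. In wild type limma called 2 of the 7 goblet markers higher with the mouse as a block, and 0 without it. Of all genes 0.965% were called there with the block. In knockout 0 of the 7 were called in either fit. Fibroblasts and smooth muscle express Mgp in many tissues. The fibroblast sum, over 10 markers of which 3 to 6 were above background on an array, ranged from 0.78 to 1.18 in knockout calcitriol, 0.67 to 1.39 in knockout vehicle, 1.26 to 1.59 in wild-type calcitriol and 0.58 to 1.23 in wild-type vehicle. It was higher with calcitriol in each wild-type mouse, by 0.59, 0.29 and 0.68. Of its 4 tested markers limma called 1 higher in wild type with the mouse as a block, and 0 without it. Most of the summed signal came from the probe of Fbln1, a matrix glycoprotein, whose level averaged 0.81 in knockout calcitriol, 0.93 in knockout vehicle, 1.29 in wild-type calcitriol and 0.57 in wild-type vehicle. The fibrillar collagen genes Col1a1, Col1a2 and Col3a1 had lower mean levels with calcitriol in wild type, -5.88, -4.20 and -4.81 against -5.34, -3.67 and -4.70 with vehicle. Col1a1 and Col3a1 were above background on only 7 and 6 of the 12 arrays, so their means lie near background. The 2 fibroblast markers above background on 0 arrays, Lum and Pdgfra, were lower too, at -7.62 and -7.92 against -6.98 and -6.71. The smooth muscle and pericyte sum differed between calcitriol and vehicle by 1.60, 0.82 and -0.69 in the knockout mice and by 0.74, 0.52 and -0.30 in the wild-type mice. The fibroblast markers Lum and Pdgfra were above background on 0 of 12 arrays, as were Cnn1 and Rgs5 of smooth muscle and pericytes and Tek of endothelium. Other markers of these lists were detected. Fbln1, Vim, Tagln, Pecam1, Kdr and Vwf were above background on all 12 arrays, Col1a2 and Pdgfrb on 11 and Acta2 on 9. The part of goblet or stromal cells in the Mgp difference was not tested.

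The genes whose levels followed that of Mgp most closely over the 12 arrays, among 14904 genes with a symbol, were Selenom (r = 0.98), Spon2 (0.97), Aldh3b1 (0.97), Srcin1 (0.97) and Adh6a (0.97). Srcin1 was above background on 3 arrays only, the other 4 genes on all 12. Spon2, the secreted matrix protein spondin 2, averaged -3.22 in both knockout groups, 0.96 in wild-type calcitriol and -2.73 in wild-type vehicle. Selenom, a selenoprotein of the endoplasmic reticulum, averaged 2.24 in knockout calcitriol, 2.21 in knockout vehicle, 4.31 in wild-type calcitriol and 2.53 in wild-type vehicle. The most opposite patterns were those of Egr1 (r = -0.93), Tnfrsf11a (-0.92), Myl12a (-0.91), Relb (-0.90) and Clca3b (-0.90). Tnfrsf11a, which encodes RANK, the receptor through which osteoclasts are formed, averaged 2.96 in knockout calcitriol, 3.03 in knockout vehicle, 2.54 in wild-type calcitriol and 2.96 in wild-type vehicle. These correlations share the wild-type calcitriol arrays on which Mgp was chosen and are descriptions only. Among the other members r with Mgp was 0.53 for Enpp1, 0.30 for Alpl, 0.18 for Vkorc1, 0.14 for Spp1, 0.13 for Ggcx and -0.01 for Bglap.

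None of the other 6 genes passed the test in any of the 5 comparisons, with or without a block. The shares of all genes called were 0% for calcitriol against vehicle in knockout, 0.161% for the same in wild type, 0.0289% for the difference of these effects, 0.00413% for knockout against wild type in vehicle and 0.206% for knockout against wild type in calcitriol. With the block they were 0%, 0.965%, 0.239%, 0.0165% and 1.03%. Beside such shares a count of 0 among 6 genes says nothing particular to them. Unadjusted p was above 0.05 for all 6 genes in all 5 comparisons without the block.

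**Figure D2:**
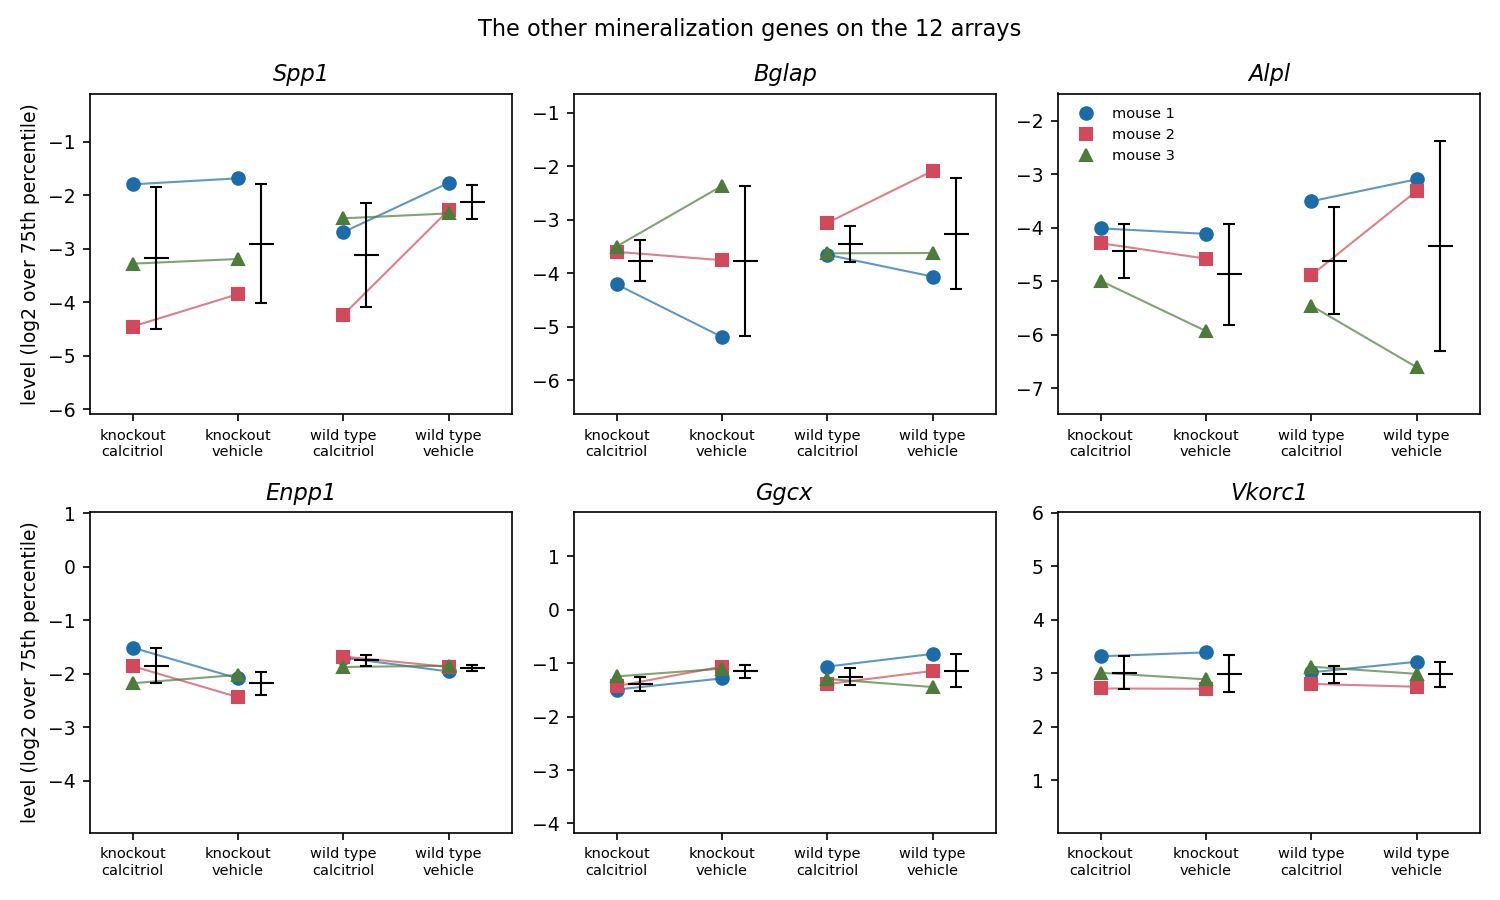
Levels (log2 of signal over the array's 75th percentile) of the 6 genes chosen by function on each array, with lines joining the 2 arrays of a mouse and bars for mean ± SD (n = 3), and all panels span the same number of log2 units. Spp1, Bglap and Alpl spread widely between mice, while Enpp1, Ggcx and Vkorc1 lie close together in all 4 groups.

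The enzymes that activate Gla proteins had similar levels in the 4 groups. Vkorc1 lay at 3.32, 2.72 and 3.01 in knockout calcitriol, 3.39, 2.71 and 2.89 in knockout vehicle, 3.02, 2.803 and 3.12 in wild-type calcitriol and 3.22, 2.75 and 2.99 in wild-type vehicle. All 4 groups overlapped, and calcitriol minus vehicle was 0.02 in knockout (95% interval -0.43 to 0.47) and -0.00 in wild type (95% interval -0.45 to 0.44). Its second probe gave -0.07 in knockout and -0.05 in wild type. Ggcx lay at -1.50, -1.43 and -1.25 in knockout calcitriol, -1.29, -1.07 and -1.10 in knockout vehicle, -1.06, -1.39 and -1.296 in wild-type calcitriol and -0.83, -1.15 and -1.45 in wild-type vehicle. The effect of calcitriol was -0.24 in knockout (-0.65 to 0.17), where it was below 0 in all 3 mice, and -0.11 in wild type (-0.52 to 0.30). For both enzymes the intervals leave out a 2-fold change, which is 1 on the log2 scale, in either direction.

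Spp1 lay at -1.79, -4.45 and -3.28 in knockout calcitriol and -1.68, -3.85 and -3.19 in knockout vehicle. In wild type it lay at -2.69, -4.24 and -2.43 with calcitriol and -1.77, -2.28 and -2.34 with vehicle. The wild-type groups did not overlap, with calcitriol the lower, and so did 4.22% of all genes in that direction. Mouse 2 differed by -1.96, mouse 1 by -0.92 and mouse 3, whose 2 arrays shared a slide, by -0.09. The mean effect was -0.27 in knockout (SE 0.70, adjusted p = 1.0) and -0.99 in wild type (SE 0.70, adjusted p = 1.0), and with the mouse as a block adjusted p in wild type was 0.375. The 95% interval in wild type was -2.52 to 0.54 without the block and -1.78 to -0.21 with it.

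Bglap lay at -4.21, -3.60 and -3.50 in knockout calcitriol, -5.19, -3.75 and -2.36 in knockout vehicle, -3.65, -3.06 and -3.62 in wild-type calcitriol and -4.06, -2.08 and -3.62 in wild-type vehicle. Vehicle arrays spread more than calcitriol arrays in both genotypes, with SDs of 1.41 against 0.38 in knockout and 1.04 against 0.34 in wild type. The effect of calcitriol was 0.00 in knockout (-1.41 to 1.42) and -0.19 in wild type (-1.61 to 1.23). Bglap2 and Bglap3, near-identical neighbouring copies whose probes may share signal with Bglap, differed by -0.12 and 0.09 in knockout and by 0.15 and 0.47 in wild type. In wild type both were higher with calcitriol in all 3 mice but did not pass the test (SE 0.36 and 0.39, adjusted p = 1.0 for both, and 0.635 and 0.255 with the mouse as a block). Dimmer probes of Bglap3 gave 0.19 and -0.01 there.

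The 2 enzymes that set pyrophosphate differed in precision. Enpp1 lay at -1.51, -1.86 and -2.18 in knockout calcitriol, -2.09, -2.44 and -2.02 in knockout vehicle, -1.70, -1.68 and -1.87 in wild-type calcitriol and -1.96, -1.87 and -1.85 in wild-type vehicle. Its effect was 0.33 in knockout (-0.11 to 0.78) and 0.14 in wild type (-0.30 to 0.59). In vehicle, knockout lay below wild type with no overlap, as for 5.97% of all genes in that direction, by 0.29 on average (SE 0.20, adjusted p = 0.706). Scaled to the arrays' medians the difference was 0.47, but that scaling moved the median of all genes to 0.70 in this comparison. With calcitriol the genotypes overlapped.

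Alpl lay at -4.01, -4.29 and -4.99 in knockout calcitriol and -4.11, -4.58 and -5.93 in knockout vehicle. In wild type it lay at -3.50, -4.89 and -5.46 with calcitriol and -3.09, -3.31 and -6.61 with vehicle. The mice numbered 1 were the highest in all 4 groups, as number 1 was for 10.4% of all genes. Those numbered 3 were the lowest, as number 3 was for 4.12%. The probe was above background on 3 of 3 knockout calcitriol arrays and on 2 of 3 in each other group. The array that fell short was that of mouse 3 each time. The effect was 0.44 in knockout (-1.46 to 2.35), above 0 in all 3 mice, and -0.28 in wild type (-2.18 to 1.62), where the mice differed by -0.41, -1.58 and 1.15. Alpl, Spp1 and Bglap had a pooled SD within groups above that of 98.1%, 95.1% and 93.0% of genes.

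**Figure D3:**
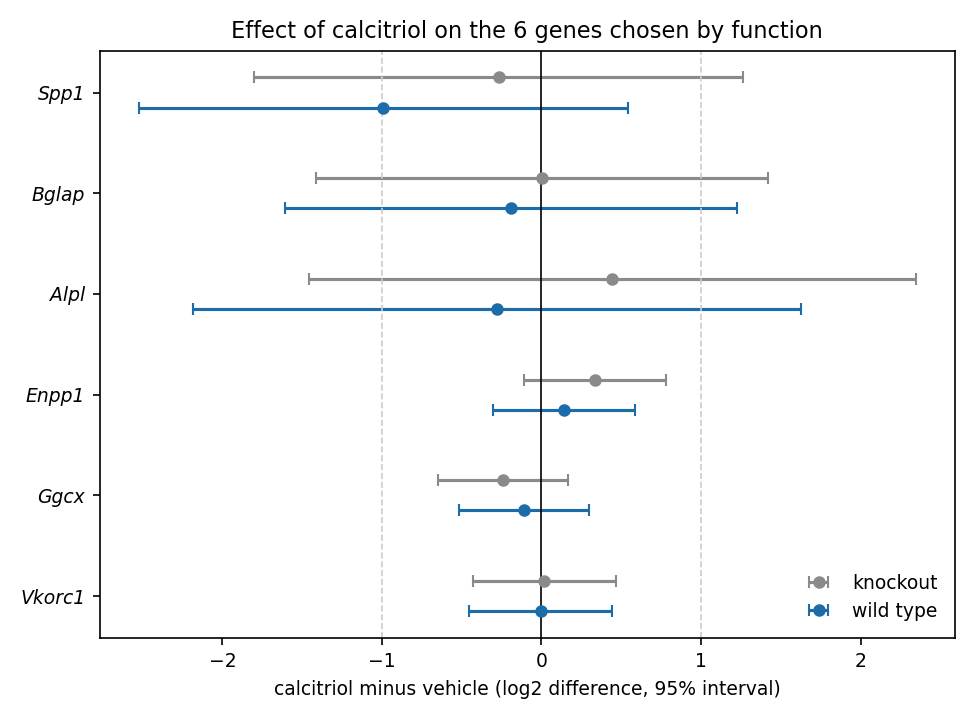
Calcitriol minus vehicle (log2 difference) of the 6 genes chosen by function, in knockout (grey, upper of each pair) and wild type (blue), with 95% intervals from limma on 12 arrays; dashed lines mark 2-fold changes. The intervals of Enpp1, Ggcx and Vkorc1 stay within the dashed lines in both genotypes, and those of Spp1, Bglap and Alpl do not.

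Wider lists of the same pathways gave 0 calls by limma in any comparison without a block. Unadjusted p was under 0.05 for 2 of their 41 tested genes for calcitriol in knockout, 4 in wild type, 1 in the difference of effects, 1 between genotypes in vehicle and 4 between them with calcitriol. Over all 24242 genes the counts were 1395, 1096, 821, 2120 and 725 in that order. Of 20 genes of the vitamin K cycle and Gla proteins 15 were tested, of 16 handling pyrophosphate, nucleotides and phosphate 13, of 17 mineral matrix proteins and bone regulators 6, and of 10 osteopontin receptors 7. The median effect of calcitriol in knockout was 0.01, -0.12, 0.12 and -0.11 over these lists in that order, beside 0.04 over all genes. In wild type it was 0.02, -0.01, 0.07 and -0.24, beside -0.03 over all genes. Of the 7 osteopontin receptors 3 lay above 0 in knockout and 1 in wild type, and the share of all genes above 0 was not computed.

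The members with the highest mean level showed small differences, apart from Fam20c. Gas6, a Gla protein that activates receptor tyrosine kinases, differed by 0.01 in knockout and 0.40 in wild type (SE 0.38 for each). Prrg2, a membrane Gla protein, differed by 0.06 in knockout and 0.09 in wild type. Cd44, an osteopontin and hyaluronan receptor, differed by -0.15 in knockout and -0.34 in wild type, and the integrin subunits Itgb1 and Itgb5 by -0.11 and 0.13 in knockout and by -0.14 and 0.05 in wild type. Ppa1 and Ppa2, the inorganic pyrophosphatases, differed by -0.07 and 0.01 in knockout and by 0.10 and -0.01 in wild type, and the phosphate carrier Slc20a1 by -0.08 and -0.14. Tnfrsf11b, the decoy receptor osteoprotegerin, and the growth factor Bmp2 differed by -0.08 and 0.11 in knockout and by 0.03 and -0.17 in wild type. Adjusted p was 1.0 for these genes in both genotypes.

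**Figure D4:**
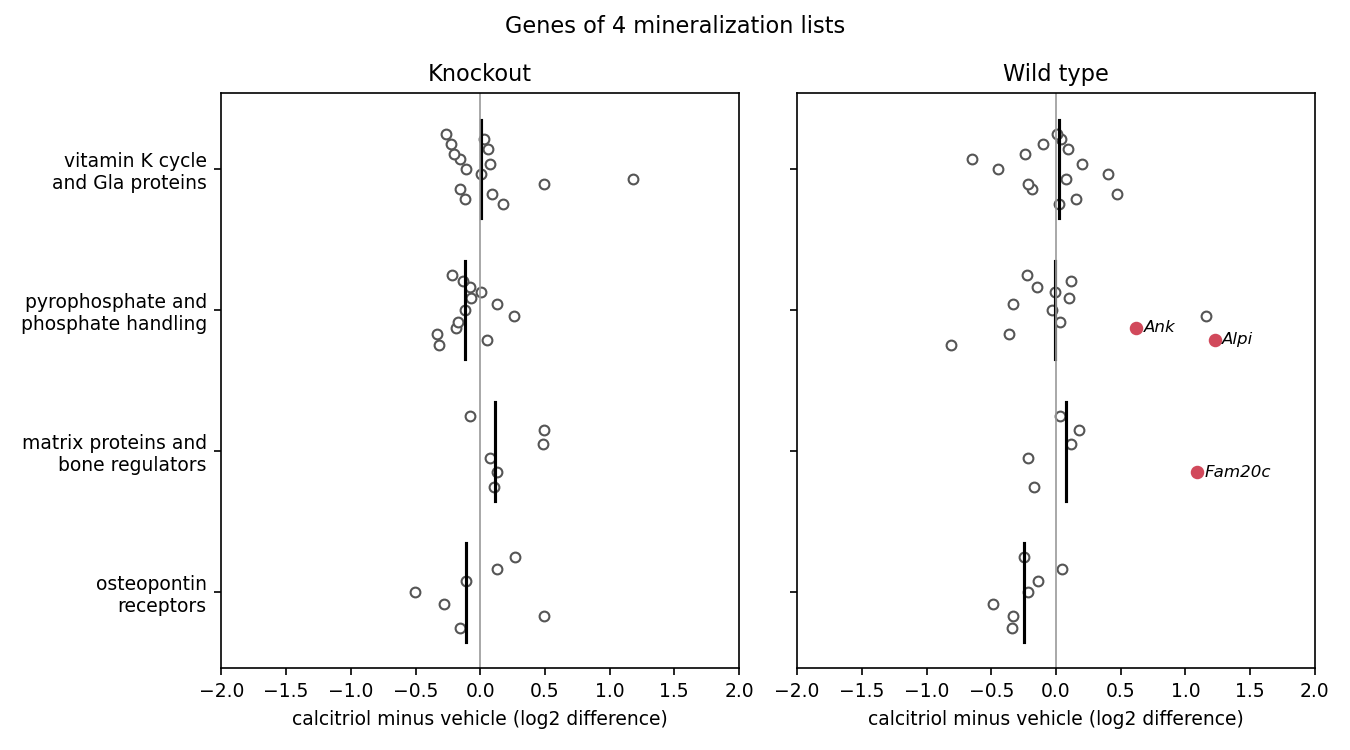
Calcitriol minus vehicle (log2 difference) of the tested genes of 4 lists in knockout (left) and wild type (right); each circle is 1 gene, black lines are medians, and filled named circles had an adjusted p under 0.05 with the mouse as a block. The 3 filled genes are in wild type, at 0.62 to 1.23, and no gene of the knockout panel is filled.

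With the mouse as a block, 3 pathway list genes rose with calcitriol in wild type, where 0.965% of all genes were called. All 3 were also lower in knockout than in wild type with calcitriol under the block, where 1.03% of all genes were called. The 3 genes were singled out because the block called them, and their values without it are given beside.

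Fam20c encodes the Golgi kinase that phosphorylates osteopontin and other secreted proteins. It lay at 1.60, 1.88 and 0.60 in knockout calcitriol, 1.61, 1.85 and 0.24 in knockout vehicle, 2.85, 2.85 and 2.76 in wild-type calcitriol and 1.74, 1.82 and 1.62 in wild-type vehicle. The 3 wild-type calcitriol arrays lay above the other 9, an order whose share among all genes was not computed. Against wild-type vehicle alone, calcitriol lay higher with no overlap for 4.67% of all genes. Its effect was 0.13 in knockout (adjusted p with the block 0.626) and 1.09 in wild type (SE 0.39, adjusted p = 0.964 without the block and 0.00201 with it), and the wild-type call was kept without any 1 of the 6 mice (adjusted p 0.0003 to 0.0454). Within the knockout mice the effects were -0.01, 0.03 and 0.36. With a term for slide the effect was 1.28 in knockout and 0.77 in wild type, and on the arrays of the largest slide alone it was 1.501 in knockout and 1.20 in wild type. On that slide the knockout value sets calcitriol arrays of mice 1 and 2 against the vehicle array of mouse 3, the lowest at 0.24. With the term the knockout vehicle level also rests on mouse 3, whose vehicle array alone shared a slide with other groups. The difference of the effects, wild type minus knockout, was 0.96 without such a term, -0.52 with it and -0.30 on the largest slide. Knockout minus wild type with calcitriol was -1.46 (adjusted p = 0.442, with the block 0.0333). That call ended without wild-type mouse 1 or 2 or knockout mouse 1 or 2 (0.148, 0.0739, 0.145 and 0.0808).

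Ank, a membrane protein through which pyrophosphate leaves the cell, lay at 1.53, 1.23 and 2.10 in knockout calcitriol and 1.71, 1.41 and 2.29 in knockout vehicle. In wild type it lay at 2.45, 2.21 and 2.73 with calcitriol and 2.06, 1.53 and 1.95 with vehicle. The wild-type groups did not overlap, with calcitriol the higher, as for 4.67% of all genes, and the knockout groups did. The effect was -0.19 in knockout (adjusted p with the block 0.576) and 0.62 in wild type (SE 0.27, adjusted p = 1.0 without the block and 0.0232 with it). The effect with a term for slide was -0.77 in knockout, where the vehicle level again rests on mouse 3, and 0.81 in wild type. The wild-type call ended without wild-type mouse 2 (0.215), wild-type mouse 3 (0.135) or knockout mouse 2 (0.0764). Knockout minus wild type with calcitriol was -0.84 (0.793 without the block, 0.0142 with it), a call that ended without wild-type mouse 1 or 2 or knockout mouse 1 or 2 (0.0642, 0.141, 0.110 and 0.160).

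Alpi, the intestinal alkaline phosphatase, lay at -0.94, -1.57 and -0.58 in knockout calcitriol, -1.06, -1.27 and -0.91 in knockout vehicle, -0.01, -0.05 and 0.65 in wild-type calcitriol and -1.01, -1.48 and -0.60 in wild-type vehicle. Here too the 3 wild-type calcitriol arrays lay above the other 9, an order whose share among all genes was not computed. The effect was 0.05 in knockout (adjusted p with the block 0.914) and 1.23 in wild type (SE 0.30, adjusted p = 0.306 without the block and 0.0131 with it). With a term for slide the wild-type effect was 1.24, and on the largest slide alone it was 0.79. The wild-type call ended without wild-type mouse 1, 2 or 3 (0.0706, 0.138 and 0.0930). Knockout minus wild type with calcitriol was -1.22 (0.282 without the block, 0.00389 with it), which ended without wild-type mouse 2 (0.0596) or knockout mouse 2 (0.0515). Alpi has close paralogs, Akp3 and Alppl2, that its probe may also detect.

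**Figure D5:**
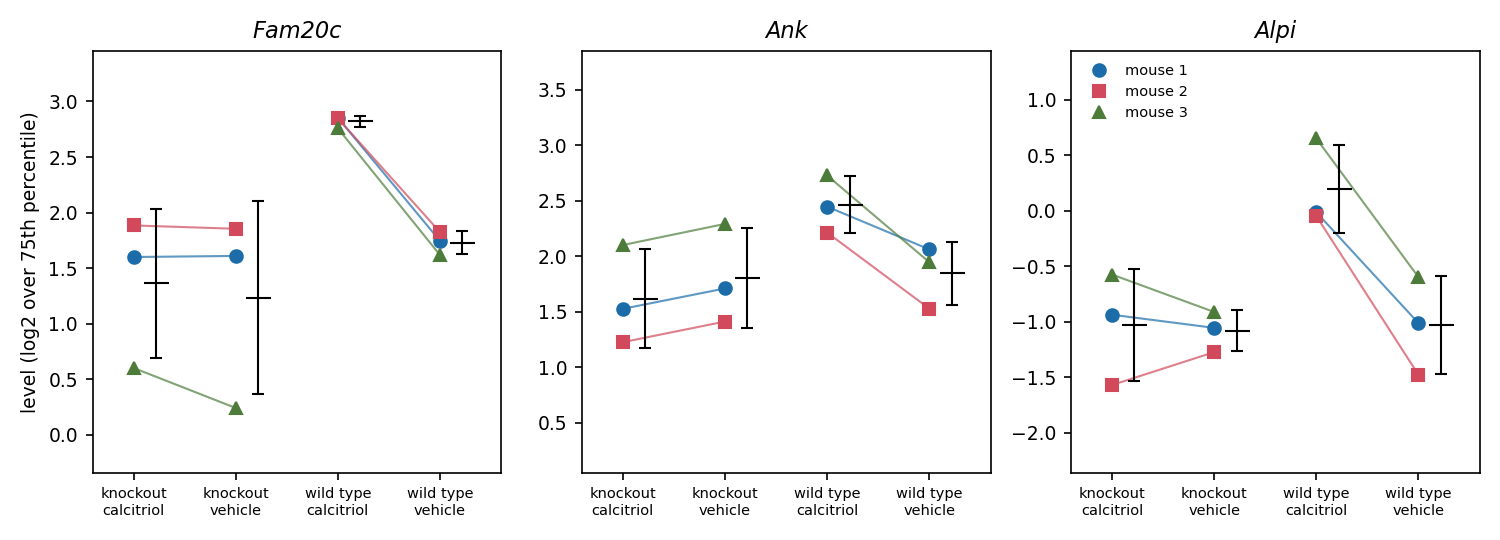
Levels (log2 of signal over the array's 75th percentile) of Fam20c, Ank and Alpi on each array, with lines joining the 2 arrays of a mouse and bars for mean ± SD (n = 3). In each panel every wild-type mouse is higher with calcitriol than with vehicle, while the knockout pairs differ by less or run the other way.

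Other list genes had effects as large without passing the test, and these were picked after their values were seen. Enpp3, an ectonucleotidase, differed by 0.26 in knockout and 1.16 in wild type (SE 0.75, adjusted p with the block 0.464). Abcc6, a transporter whose loss causes ectopic calcification, differed by -0.32 in knockout and -0.81 in wild type (SE 0.31, adjusted p with the block 0.405). F9, coagulation factor IX, differed by 1.18 in knockout and 0.08 in wild type (SE 0.45, adjusted p with the block 0.576 in knockout).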

How the data were processed

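Total RNA (100 ng) from 12 organoid cultures was hybridised in 1 colour. The authors extracted linear spot intensities with Feature Extraction 11.5.1.1, on probes annotated on mm9, per the file headers. The processed intensity had its background subtracted, a spatial trend removed and low values set to a small positive floor, and was not normalized between arrays.

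Control and outlier spots were left out, log2 of the processed intensity minus each array's 75th percentile was taken, and spots of a probe were averaged. The background alternative (normexp, offset 50) used the raw median intensity, as the files hold no mean intensity. Of 55681 probes, 28026 were named through accessions in RefSeq's GRCm38.p6 table. Probes had to have values on all arrays and to exceed background clearly on each of the 3 arrays of 1 group or more, and the brightest stood for its gene, giving 24242 genes. The number of arrays limits the precision.

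All genes were fitted in limma 3.58.1 (R 4.3.3) as 4 group means on 12 arrays, with a variance trend, 2-sided tests and Benjamini-Hochberg adjustment (threshold 0.05), after a check on simulated data. Arrays of 1 mouse share the label's number. Their deviations from the group means correlated at 0.57, 0.32 and 0.32 (wild type) and at 0.25, 0.59 and 0.10 (knockout), and those of same-numbered mice of both genotypes, which share labelled sex and age, at 0.41, 0.40 and 0.34 with calcitriol and 0.64, 0.13 and 0.40 with vehicle. Mouse, or number between genotypes, was therefore a block in a second fit. Replicates are separate mice.

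The members, lists and tests were chosen with earlier results of these data known. Named genes are all members, checks, the list genes called or among the 3 highest in mean level, and the 5 genes most and least like Mgp, and Enpp3, Abcc6 and F9 were named after their values were seen; 1 list gene is not reported here. Alternatives were the block, other scalings and background correction, no dim-probe filter, every probe, fewer arrays, slide, and each array left out.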

Additional observations from a re-analysis of the deposited data

Results flagged for a closer look

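For 3 of 14 list genes examined, and none of the 6 members chosen by function, the effect of calcitriol differed between the genotypes by the test of the difference or by opposite signs in every mouse. The 14 were the 3 genes of each list with the highest mean level and any the block called. The share of all genes with opposite signs in every mouse was not computed, so these counts only describe the genes examined. The effect on Fam20c was -0.01, 0.03 and 0.36 in the knockout mice and 1.11, 1.02 and 1.14 in the wild-type mice, a difference, wild type minus knockout, of 0.96 (SE 0.55, limma adjusted p = 1.0, and 0.0403 with the mouse as a block, where 0.239% of all genes were called). That call ended without wild-type mouse 1, 2 or 3 or knockout mouse 1 or 2 (adjusted p 0.165 to 0.254). The difference turned to -0.52 with a term for slide and to -0.30 on the largest slide alone, where the knockout effect was 1.501. In both fits the knockout vehicle level rests on the array of mouse 3, so different mice are compared.

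The effect on Ank was -0.18, -0.19 and -0.19 in the knockout mice and 0.39, 0.68 and 0.78 in the wild-type mice. Wild type minus knockout came to 0.80 (SE 0.38), with an adjusted p of 1.0, or 0.0827 under the block.

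Ppa1, an inorganic pyrophosphatase, likewise moved in opposite directions in every mouse, by -0.07, -0.09 and -0.04 in the knockouts and by 0.00, 0.06 and 0.25 in the wild types. The difference of 0.17 was close to its error (SE 0.16, adjusted p = 1.0, and 0.701 with the block).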

How the results depend on the processing

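The count of members called was 0 in all 5 comparisons under every alternative run, each array left out included, and with the replicate block. Mgp entered that count only for calcitriol against vehicle in knockout, as its other comparisons carry no test. Of 728 values of single members under alternatives, Mgp included, 93 changed sign, 75 of them by less than 1 SD between replicates. Among the values that carry a test, 0 were called. Scaling to the median moved the median of all genes to -0.25 (effect in knockout), 0.44 (effect in wild type), 0.69 (difference of effects) and 0.70 (genotypes in vehicle). With it, Vkorc1 turned to -0.27 in knockout, 0.47 in wild type and 0.74 in the difference, Ggcx to 0.36 in wild type, Enpp1 to 0.57 in the difference, and, between genotypes in vehicle, Enpp1 to 0.47 and Ggcx to 0.75. With a term for slide, and on the largest slide alone, Bglap turned to -1.56 and -1.54 in knockout, 1.69 and 1.71 in the difference and 1.21 and 1.26 between genotypes in vehicle, Ggcx to 0.11 and 0.20 in wild type and 0.26 and 0.34 between genotypes in vehicle, and Fam20c to -0.52 and -0.30 in the difference. Alpl turned to 1.99 in wild type within the largest slide. On that slide each genotype has 1 vehicle array, that of mouse 3, so effects of calcitriol there also compare different mice. With a term for slide the knockout vehicle level rests on mouse 3 too, whose vehicle array alone shared a slide with other groups. The cause of these turns was not tested. Mgp in wild type was 4.33 to 6.94 over the alternatives (4.39 to 6.07 with 1 array left out), and between genotypes with calcitriol -7.82 to -5.18. Over all genes in wild type, 39 were called, 234 with the replicate block, 70 scaled to the median, 6 with a term for slide and 3 on the largest slide. For the difference of effects 7 were called, against 58 with the block, 11 with normexp, 12 with quantile normalization, 21 scaled to the median, 1 with a term for slide and 2 on the largest slide. Leaving a mouse out of the block was run only for the 3 pathway list genes the block called, as no tested member was. Like the slide fits of those genes, it was chosen after seeing the data.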
